A study of Mus musculus with 10 samples.

Results

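The transmitter that a neuron releases is set by a small number of enzymes and transporters, and 9 genes of this kind were followed in RNA from mouse brainstem microglia. They were Slc17a6, Slc17a7 and Slc17a8, which load glutamate into synaptic vesicles, Chat and Slc5a7, which make acetylcholine and take up its precursor choline, and Th, Tph2, Slc6a4 and Slc6a2, which make or take up the monoamines. The genes were chosen by name from the 37447 genes of the deposited expression table, and all 9 were found there. Microglia are the resident immune cells of the brain and are not known to use any of these genes for transmission.

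The study set out, per its design text, to compare microglia obtained by different isolation methods. LCM_GFP comprised 4 libraries of GFP expressing microglia cut by laser from brainstem sections (3 female, 1 male), FACS_GFP comprised 3 libraries of GFP expressing microglia sorted after dissociation (2 female, 1 male), and FACS_WT comprised 3 libraries of sorted wild-type microglia (3 male, strain C57BL/6). All mice were 6 weeks old, and each library is labelled as a biological replicate. The GFP allele, the promoter that drives it and the strain of the GFP mice are not given in the sources used here, nor is whether animals were pooled. Tissue for laser capture was fixed in paraformaldehyde, frozen and extracted with proteinase K and acid phenol, whereas sorted cells were enriched on Percoll and extracted with TRIzol. Isolation method, fixation and RNA extraction therefore cannot be told apart, and sex and genotype also differed between LCM_GFP and FACS_WT. Values are FPKM, fragments scaled to transcript length and to sequencing depth, so that levels of different genes can be compared.

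Glutamate is the main excitatory transmitter of the brain. In rodents Slc17a6 (VGLUT2) is the prevailing vesicular glutamate transporter of brainstem and thalamus and Slc17a7 (VGLUT1) that of cortex, hippocampus and precerebellar neurons, while Slc17a8 (VGLUT3) occurs in a sparse set of neurons. Cholinergic neurons of the brainstem include cranial motor neurons, serotonin is made by the raphe nuclei, and noradrenaline by the locus coeruleus.

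The sequences upstream of the transcription start were examined for the 8 genes that have an entry in the RefSeq promoter table (build GRCm38.p6). Shown here are the 250 bases before the start of the 2 genes that could be tested (Slc17a6 and Slc17a7) and of the 2 monoamine synthesis genes that held a searched motif (Th and Tph2). Each runs 5′ to 3′ on the strand of its gene, for Slc17a6 at the first of its 2 listed start sites, and capitals mark the motif matches.
Slc17a6 (chr7:51621580-51621829, plus strand): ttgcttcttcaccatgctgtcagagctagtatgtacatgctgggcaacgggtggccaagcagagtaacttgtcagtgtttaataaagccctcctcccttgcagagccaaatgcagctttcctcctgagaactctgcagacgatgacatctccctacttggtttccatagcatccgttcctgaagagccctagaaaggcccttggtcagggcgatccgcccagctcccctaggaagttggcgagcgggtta
Slc17a7 (chr7:45163671-45163920, plus strand): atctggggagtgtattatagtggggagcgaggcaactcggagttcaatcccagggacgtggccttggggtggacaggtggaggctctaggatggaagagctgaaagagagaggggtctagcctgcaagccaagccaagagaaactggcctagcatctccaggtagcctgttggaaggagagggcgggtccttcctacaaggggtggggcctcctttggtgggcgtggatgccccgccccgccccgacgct
Th (chr7:142899996-142900245, minus strand): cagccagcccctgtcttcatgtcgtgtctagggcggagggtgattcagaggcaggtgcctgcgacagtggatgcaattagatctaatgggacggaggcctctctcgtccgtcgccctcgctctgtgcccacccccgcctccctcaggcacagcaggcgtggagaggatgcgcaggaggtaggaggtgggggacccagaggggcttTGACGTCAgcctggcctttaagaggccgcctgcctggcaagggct
Tph2 (chr10:115185023-115185272, minus strand): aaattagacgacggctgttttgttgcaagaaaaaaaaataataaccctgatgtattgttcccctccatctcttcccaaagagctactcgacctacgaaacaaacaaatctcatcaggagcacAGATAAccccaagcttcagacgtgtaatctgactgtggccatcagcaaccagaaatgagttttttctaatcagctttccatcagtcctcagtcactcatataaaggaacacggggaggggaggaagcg

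The motifs were searched on both strands. The first part of the RE1 element recognised by REST, a repressor of neuronal genes outside neurons, was searched as CAGCACC, which 5.73% of the 32851 promoter windows of this length held. Among the genes followed here it occurred in 1 window, on the minus strand of the first Slc17a8 start site at position −58 from the transcription start. The other part of the same element was searched as GGACAGC, held by 5.28% of all windows, and occurred in none of the windows of these genes. The cAMP response element, which reads the same on both strands, was searched as TGACGTCA and was held by 1.55% of windows, among them that of Th, where it starts at position −45. A motif of GATA factors was searched as AGATAA and was held by 9.99% of windows, among them that of Tph2, where it starts at position −128. No searched motif lay in the windows of Slc17a6, Slc17a7, Chat, Slc5a7 or Slc6a4. These are letter matches only.

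All 9 genes were at or close to 0 in every sorted library, where the highest value of any of them was 0.043 FPKM (Slc17a8 in the first FACS_WT library). In the laser-captured libraries 2 of them, Slc17a6 and Slc17a7, were higher than in either sorted group by the test. Th and Slc17a8 were above 0 in all 4 laser-captured libraries, and the other 5 genes were each listed at 0 in at least 1 of them. A value of 0 can be a failed estimate or an absent transcript, which was not checked, so such genes are described as listed at 0. In all, 13661 genes were at 0 in every library, which does not show which of these applies. In bulk RNA, fewer cells of a type and less RNA per cell cannot be told apart.

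**Figure D1:**
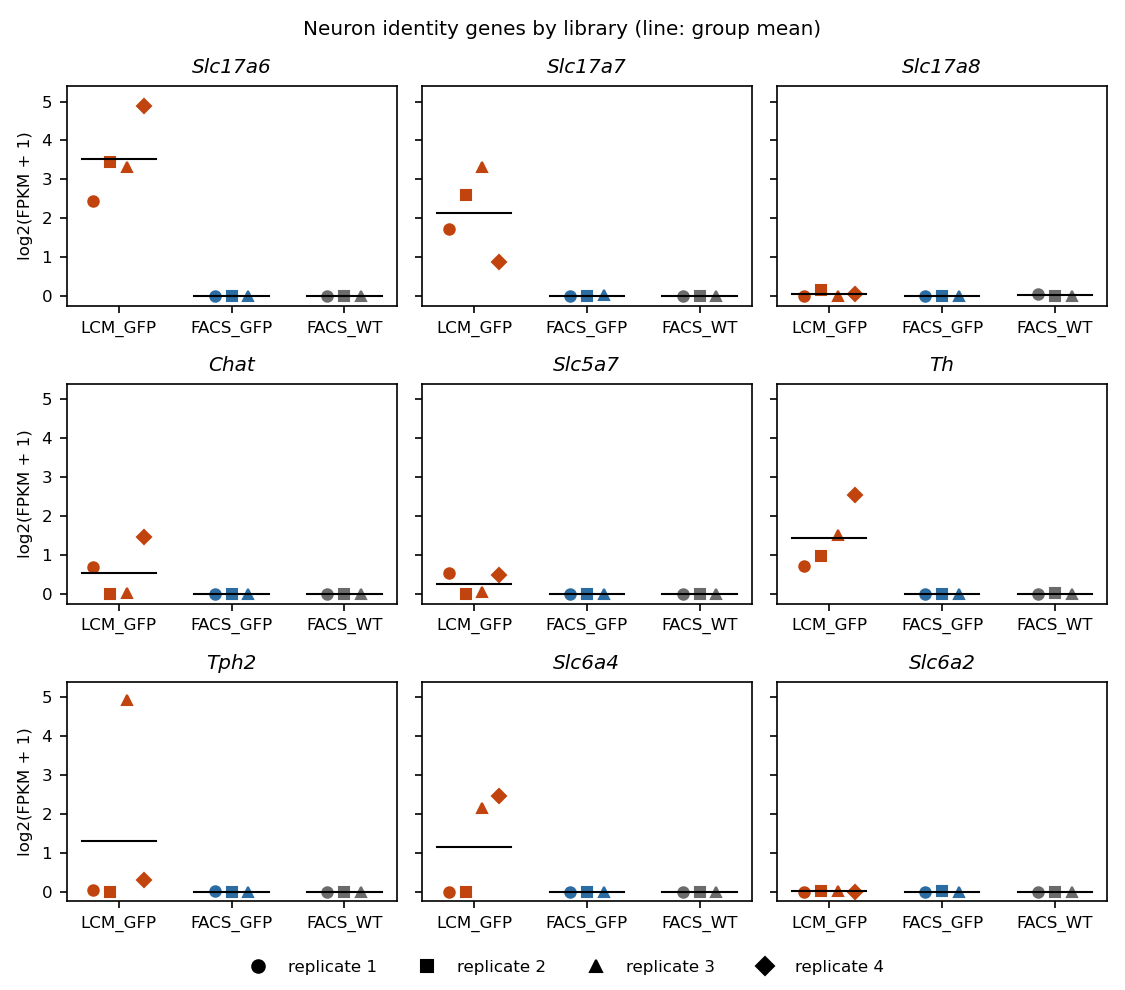
Level of each of the 9 genes, as log2(FPKM + 1), in the 4 laser-captured libraries (LCM_GFP) and the 3 libraries of each sorted group; each point is 1 library, its shape the replicate number, and the line is the mean of the group on this scale. Slc17a6 was above the sorted libraries in 4 of 4 laser-captured libraries, and Tph2 stood high in 1 of 4.

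Of the 9 genes, 2 reached the FPKM of 1 in at least 3 of the compared libraries that the test required, and both were called higher in LCM_GFP than in FACS_GFP and than in FACS_WT. Among all genes tested, 12.5% were called higher in the comparison with FACS_GFP and 12.3% in that with FACS_WT. A gene that is near 0 in the sorted libraries could pass this requirement only through the laser-captured ones, so the 2 of 2 is not evidence about the 9 genes. No gene of the 9 was called lower. The test was limma on log2(FPKM + 1), two-sided, with Benjamini-Hochberg adjustment over all genes, and changes on this scale understate those of low genes. The 2 laser-capture comparisons share the LCM_GFP libraries and are not independent of each other.

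Slc17a6 (ENSMUSG00000030500, mm9 chr7:58877199-58926495) had the highest mean level of the 9 genes. Its FPKM was 4.49, 9.99, 8.89 and 28.6 in laser-captured libraries 1 to 4, with a mean of 13 ± 10.7 (SD, n = 4). It was listed at 0 in all 3 FACS_GFP libraries, and was 0.00427, 0 and 0.00632 in the FACS_WT libraries. Every laser-captured library thus lay above every sorted one, and the highest laser-captured library was 6.36 times the lowest. The log2 change was 3.53 (SE 0.59) against FACS_GFP, with a limma adjusted p of 0.00361, and 3.52 (SE 0.60) against FACS_WT, with a limma adjusted p of 0.00359. This call held under each of the 16 alternative settings tried in each comparison.

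Slc17a7 (ENSMUSG00000070570, mm9 chr7:52419290-52431508) had FPKM of 2.30, 5.06, 8.92 and 0.824 in laser-captured libraries 1 to 4, with a mean of 4.27 ± 3.56 (SD, n = 4). In FACS_GFP it was 0.00794, 0 and 0.0129, and in FACS_WT it was listed at 0 in all 3 libraries. The groups did not overlap, although library 4 was under 1 FPKM. The log2 change was 2.11 (SE 0.55) against FACS_GFP, with a limma adjusted p of 0.0228, and 2.12 (SE 0.56) against FACS_WT, with a limma adjusted p of 0.0223. This call depended on the libraries and settings. It was lost when any 1 FACS_GFP library was left out (adjusted p 0.11 to 0.111) or any 1 FACS_WT library (0.103 to 0.108), with a pseudocount of 5 (0.0577 and 0.0567) and without the filter on low values (0.0536 and 0.0524). Without laser-captured library 1, 2 or 3 the gene had too few libraries at 1 FPKM to be tested.

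**Figure D2:**
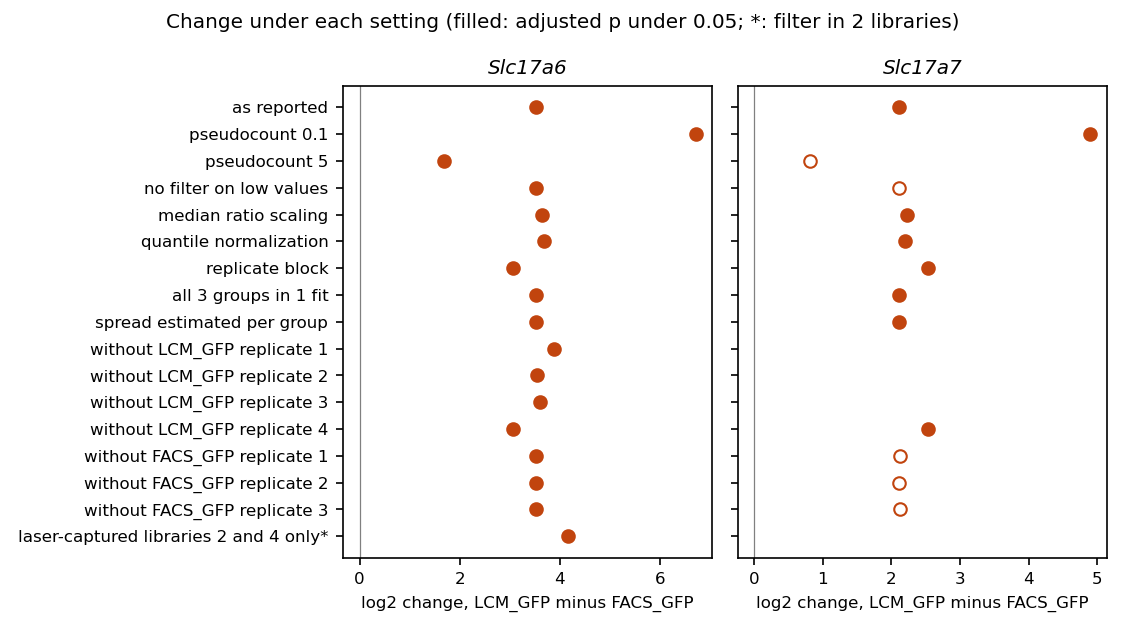
Log2 change of Slc17a6 and Slc17a7 between LCM_GFP and FACS_GFP (x axis) under the reported and each alternative setting (y axis); filled points had a limma adjusted p under 0.05, and no point means that the gene could not be tested. Slc17a6 stayed between 1.68 and 6.71 with every point filled, and Slc17a7 between 0.81 and 4.9 with 5 open points.

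Slc17a8 (ENSMUSG00000019935, mm9 chr10:89036764-89083998) was near 0 throughout. Its FPKM was 0.00662, 0.116, 0.00709 and 0.0317 in the laser-captured libraries, 0, 0.00421 and 0 in FACS_GFP and 0.043, 0 and 0.00304 in FACS_WT. Laser-captured values lay above all FACS_GFP values and overlapped those of FACS_WT.

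The proportions of the vesicular glutamate transporters differed between laser-captured libraries. Of their summed FPKM, Slc17a6 held 66.1%, 65.9%, 49.9% and 97.1% in libraries 1 to 4, a mean of 69.7% ± 19.7 (SD, n = 4). Slc17a7 held 33.8%, 33.4%, 50.1% and 2.8%, and Slc17a8 never held more than 0.764%. Libraries 1 and 2 had nearly the same ratio of Slc17a6 to Slc17a7, 1.96 and 1.97, while it was 0.997 in library 3 and 34.7 in library 4. Library 4 therefore held the most Slc17a6 and the least Slc17a7 of the 4. The ratio comes from 1 library each and was not tested.

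**Figure D3:**
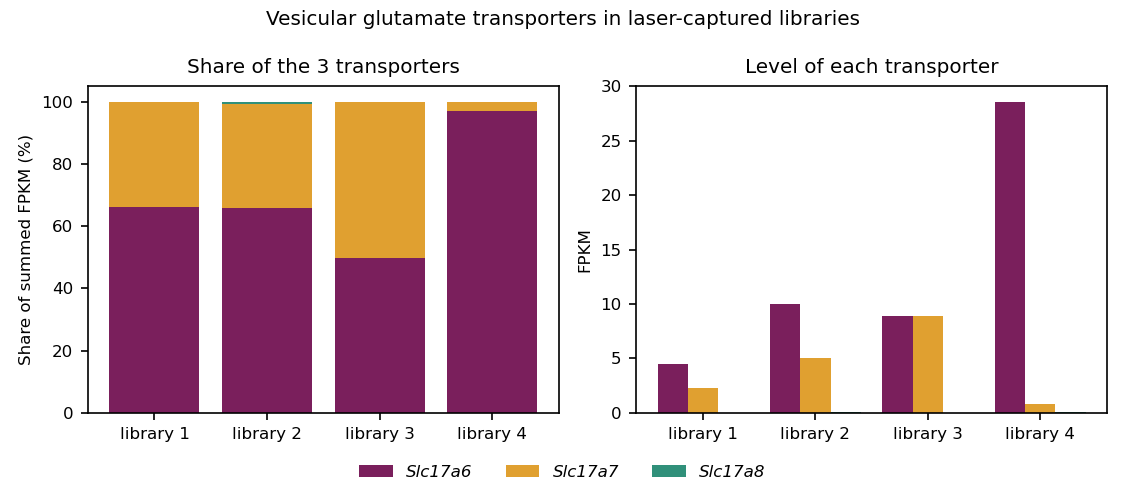
Slc17a6, Slc17a7 and Slc17a8 in the 4 laser-captured libraries, left as stacked shares of their summed FPKM (%) and right as FPKM of each gene. Slc17a6 took from 49.9% (library 3) to 97.1% (library 4) of the sum.

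Several other genes of glutamate handling were abundant in sorted microglia too. Of 8 listed genes, 6 were tested against FACS_GFP and 2 were called higher, beside 12.5% of all genes tested. The median log2 change was 0.36, beside −0.60 over all genes tested. The 2 were Got1, a glutamate-aspartate transaminase of the cytosol, with a log2 change of 3.25 (SE 0.32, limma adjusted p 0.000373), and Slc1a1, a glutamate uptake carrier of neurons, with 3.98 (SE 0.51, limma adjusted p 0.000934). Got1 was 118, 181, 156 and 196 FPKM in the laser-captured libraries, and the sorted libraries ranged from 13.1 to 19. Slc1a1 was at most 0.0843 FPKM in the sorted libraries and passed the requirement of the test only through the laser-captured ones. Glud1 (glutamate dehydrogenase) and Slc38a2 (a glutamine carrier) were not called, with changes of −0.31 and −0.27, both of which turned positive with median ratio scaling (0.24 and 0.26, not called). Against FACS_WT the list gave the same counts, 2 higher and 0 lower of 6.

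Chat (ENSMUSG00000021919, mm9 chr14:33221388-33279095), choline acetyltransferase, was 0.61, 0, 0.0119 and 1.74 FPKM in laser-captured libraries 1 to 4. Slc5a7 (ENSMUSG00000023945, mm9 chr17:54412918-54438359), the high-affinity choline transporter of cholinergic terminals, was 0.439, 0, 0.0289 and 0.391. Both were listed at 0 in all 6 sorted libraries. The same laser-captured libraries, 1 and 4, held the higher values of both genes and library 2 was listed at 0 for both, so the groups overlapped. Without the filter on low values, the log2 change against FACS_GFP was 0.54 for Chat (limma adjusted p 0.363) and 0.26 for Slc5a7 (0.282). The locus of Chat overlaps that of Gm2990, which did not exceed 0.0372 FPKM.

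Of 29 matched genes of the cholinergic list (30 table rows), 17 rows reached 1 FPKM in at least 1 laser-captured library and 1 in a sorted library of either group. Only 4 could be tested, with a median change of 3.10. Of these 3 were called higher than in FACS_GFP and 0 lower, beside 12.5% of all genes tested called higher. The 3 were near 0 in the sorted libraries and passed the requirement of the test only through the laser-captured ones. Their count is therefore not evidence about the list. The called genes were Chrna4, a nicotinic receptor subunit (4.48, SE 0.70, limma adjusted p 0.00255), Bche, butyrylcholinesterase (3.24, SE 0.66, 0.00861) and Chrm2, a muscarinic receptor (2.96, SE 0.88, 0.0351). Chrm2 lost its call with laser-captured libraries 2 and 4 only (adjusted p 0.0737). Chrna4 was 6.23, 26.5, 20.2 and 58.1 FPKM in the laser-captured libraries and at most 0.0377 in the sorted ones. Ache, acetylcholinesterase, was 7.60, 26.8, 44.0 and 15.1 FPKM in laser-captured and 5.04 to 7.21 in sorted libraries, a change of 1.48 (SE 0.60) that was not called (limma adjusted p 0.0939) and that passed with median ratio scaling (1.95, adjusted p 0.0455) and with laser-captured libraries 2 and 4 only (1.53, adjusted p 0.0156). Motor neuron regulators were sparse. Isl1 was 1.41 and Tbx20 was 4.03 FPKM in laser-captured library 1 and both were listed at 0 in the other 9 libraries. These 2 genes were named after their values were seen.

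Th (ENSMUSG00000000214, mm9 chr7:150078656-150117033), tyrosine hydroxylase, the rate-limiting enzyme of catecholamine synthesis, was 0.649, 0.952, 1.88 and 4.86 FPKM in laser-captured libraries 1 to 4, with a mean of 2.09 ± 1.92 (SD, n = 4). It was listed at 0 in the 3 FACS_GFP libraries and was 0, 0.0119 and 0 in FACS_WT. The groups did not overlap, but only 2 laser-captured libraries reached 1 FPKM, so Th was not tested. Without the filter its log2 change was 1.44 against FACS_GFP (limma adjusted p 0.0788) and 1.44 against FACS_WT (0.0803), short of a call.

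Slc6a2 (ENSMUSG00000055368, mm9 chr8:95483977-95525566), the noradrenaline transporter, was at or near 0 in every library. It was 0, 0.0209, 0.00482 and 0 FPKM in the laser-captured libraries, 0, 0.00636 and 0 in FACS_GFP and 0, 0.00331 and 0 in FACS_WT. The 3 groups overlapped. Dbh, which turns dopamine into noradrenaline, did not exceed 0.0286 FPKM in any library. Slc6a3, the dopamine transporter, was 0.969 FPKM in laser-captured library 3 and listed at 0 in the other 9. Ddc, the decarboxylase common to catecholamine and serotonin synthesis, was 0, 7.06, 13.1 and 22.8 FPKM in the laser-captured libraries and at most 0.0839 in the sorted ones. Dbh, Slc6a3 and Ddc were named after their values were seen.

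Tph2 (ENSMUSG00000006764, mm9 chr10:114515696-114622078), the neuronal tryptophan hydroxylase that starts serotonin synthesis, was 0.0302, 0, 29.2 and 0.229 FPKM in laser-captured libraries 1 to 4. It was 0.00716, 0 and 0 in FACS_GFP and listed at 0 in FACS_WT. Library 3 thus held the highest value of any of the 9 genes in any library, and library 2 was listed at 0 like most sorted libraries. Without the filter the log2 change was 1.31 against FACS_GFP with a limma adjusted p of 0.514.

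Slc6a4 (ENSMUSG00000020838, mm9 chr11:76812104-76845842), the serotonin transporter, was 0, 0, 3.46 and 4.49 FPKM in laser-captured libraries 1 to 4 and listed at 0 in all 6 sorted libraries. It was found in library 3, where Tph2 was high, and to a similar level in library 4, where Tph2 was 0.229. Without the filter its log2 change was 1.15 against FACS_GFP (limma adjusted p 0.323). The locus of Slc6a4 overlaps that of Gm12343, which was listed at 0 in all 10 libraries.

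Slc18a2, the vesicular monoamine transporter, was 0.589, 2.02, 9.35 and 0.491 FPKM in the laser-captured libraries and 0.458 to 0.673 in the sorted ones. Its highest value was in library 3, the library with the most Tph2, and in libraries 1 and 4 it lay within the sorted range. Fev, the transcription factor of serotonin neurons also known as Pet1, was 0, 0.262, 0 and 0.0537 FPKM in the laser-captured libraries and listed at 0 in the sorted ones, so that library 3, with 29.2 FPKM of Tph2, had none recorded. Tph1, the tryptophan hydroxylase of gut and pineal, was listed at 0 in all 10 libraries. These 3 genes were also named after their values were seen.

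**Figure D4:**
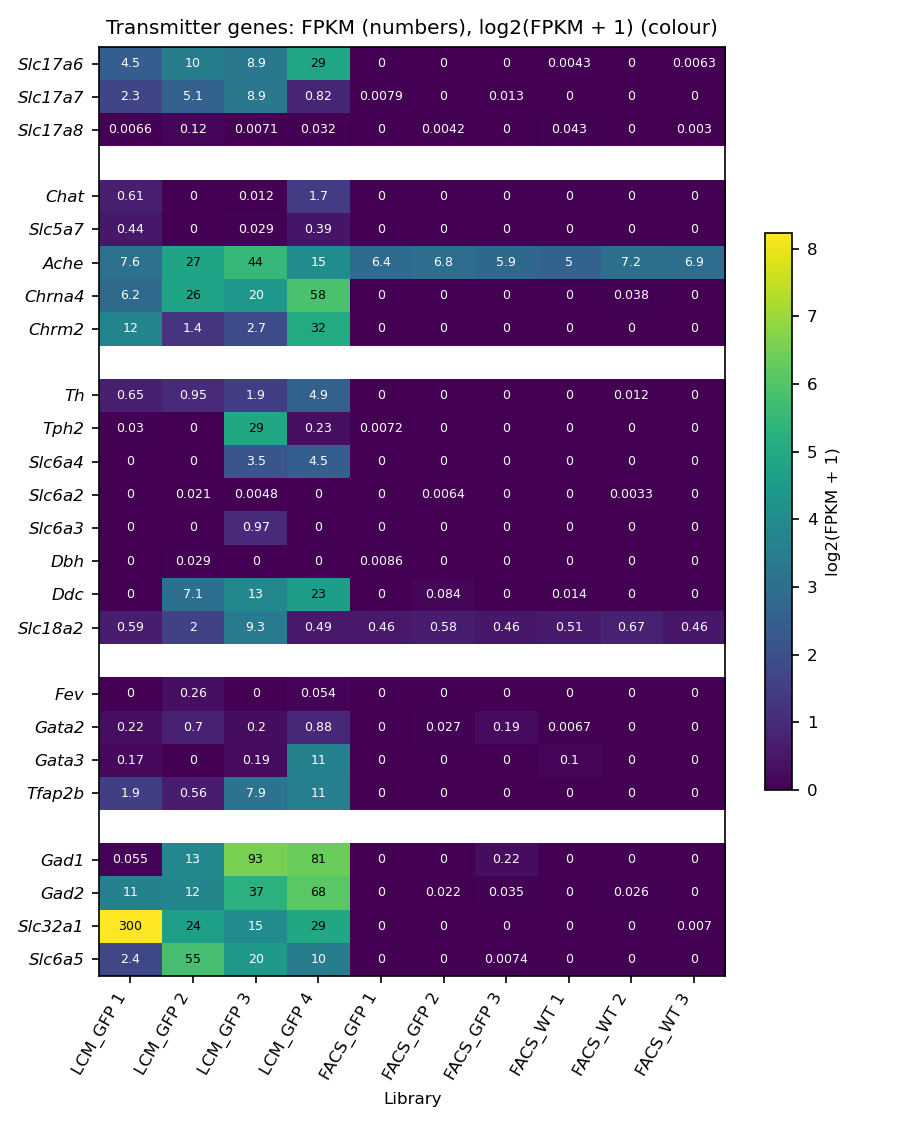
FPKM (numbers) and log2(FPKM + 1) (colour) of the 9 genes and of related transmitter genes (rows, grouped by transmitter, regulators and GABA or glycine) in the 10 libraries (columns). The 9 genes are near 0 in all sorted libraries, Tph2 stands at 29.2 in laser-captured library 3 only, and the inhibitory genes Gad2, Slc32a1 and Slc6a5 are present in all 4 laser-captured libraries.

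Among the 15 other genes of monoamine synthesis, storage and breakdown, 7 were tested against FACS_GFP, with 1 called higher and 0 lower. Over all genes tested, 12.5% were called higher. The median log2 change of the 7 was −0.65. The called gene was Maoa, monoamine oxidase A, with 5.63, 13.5, 8.16 and 13.2 FPKM in the laser-captured libraries against 0.875 to 1.13 in the sorted ones (log2 change 2.44, SE 0.46, limma adjusted p 0.00581). Pts and Qdpr, enzymes of the tetrahydrobiopterin cofactor, were not called. With laser-captured libraries 2 and 4 only, Qdpr was called higher (2.48, adjusted p 0.0177), as was Ddc (3.75, adjusted p 0.00426). Pts was 2.70 to 24.6 FPKM in laser-captured and 22.1 to 42.9 FPKM in sorted libraries. Against FACS_WT 2 genes were called lower, Gch1 (−0.96, limma adjusted p 0.0489) and Spr (−1.05, 0.0436), both enzymes of the same cofactor. Of all genes tested against FACS_WT, 2558 of 13415 were called lower. Neither the Gch1 nor the Spr call held with median ratio scaling (limma adjusted p 0.144 and 0.132).

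Of 16 transcription factors of monoamine neurons, 8 reached 1 FPKM in at least 1 laser-captured library and none in a sorted library. The matching share over all genes was not worked out, so these counts are a description. Tfap2b was the only one tested and was called higher (2.21, SE 0.69, limma adjusted p 0.0408), at 1.89, 0.558, 7.87 and 10.6 FPKM against 0 in all 6 sorted libraries. It thus passed the requirement of the test only through the laser-captured libraries, and could not have been called lower. Over all genes tested, 12.5% were called higher against FACS_GFP. Gata3 was 0.165, 0, 0.186 and 11.3 FPKM in the laser-captured libraries, high in library 4 alone. Nr4a2 was 0.45 to 1.5 in laser-captured and 0.0812 to 0.77 in sorted libraries.

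Monoamine receptors moved in both directions. Of 27 genes, 6 were tested, 2 were called higher and 2 lower in each laser-capture comparison, with a median change of 0.37 against FACS_GFP. Htr2c, a serotonin receptor of neurons and choroid plexus, was higher (2.91, SE 0.88, limma adjusted p 0.0375), as was Drd2, a dopamine receptor (2.94, SE 0.49, 0.00324). Both were near 0 in the sorted libraries and passed the requirement of the test only through the laser-captured ones. Over all genes tested, 12.5% were called higher against FACS_GFP. Called lower were 2624 of 13403 genes tested against FACS_GFP and 2558 of 13415 against FACS_WT. Adrb1, an adrenergic receptor, was lower (−1.87, SE 0.44, limma adjusted p 0.0151). Its FPKM was 0, 1.08, 1.69 and 0.19 in LCM_GFP and 3.96 to 6.38 in the sorted libraries. Adra2a and Htr2b were not called, with changes of 1.87 and −1.13. With laser-captured libraries 2 and 4 only, Adra2a was called higher (3.06, adjusted p 0.0294).

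For comparison, the 6 genes of inhibitory transmission by GABA and glycine were all tested against FACS_GFP. Of them 5 were called higher, beside 12.5% of all genes tested, with a median log2 change of 4.45. Only 1 of the 6 reached 1 FPKM in FACS_GFP. The others passed the requirement of the test only through the laser-captured libraries, so this count is not evidence about inhibitory genes. Slc32a1, which loads both transmitters into vesicles, was 300, 24.1, 14.8 and 29.4 FPKM in laser-captured libraries 1 to 4, above Slc17a6 in each of them. Gad1, which makes GABA, was 0.0549, 12.9, 92.9 and 80.6 and was not called (4.10, SE 1.46, limma adjusted p 0.0628), although it passed with laser-captured libraries 2 and 4 only (4.98, adjusted p 0.00684). No test of the difference between the inhibitory genes and the 9 genes was made.

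By mean level in the laser-captured libraries, with a listed 0 counted as 0, the order was Slc17a6, Tph2, Slc17a7, Th, Slc6a4, Chat, Slc5a7, Slc17a8 and Slc6a2. Most neighbours in this order were not separated in every library. Slc17a6 exceeded Tph2 in 3 of 4 libraries, Tph2 exceeded Slc17a7 in 1 of 4, Slc17a7 exceeded Th in 3, Th exceeded Slc6a4 in 3, Slc6a4 exceeded Chat in 2, Chat exceeded Slc5a7 in 2 and Slc5a7 exceeded Slc17a8 in 3. Slc17a8 exceeded Slc6a2 in 4 of 4. The libraries differed in which of the genes they held. Of the 9, those at 1 FPKM or more numbered 2 in library 1, 2 in library 2, 5 in library 3 and 4 in library 4, and those listed at 0 numbered 2, 4, 0 and 1.

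Of the 9 genes, 4 had every laser-captured library above every FACS_GFP library (Slc17a6, Slc17a7, Slc17a8 and Th), beside 13.1% of the 23201 genes above 0 in any of those libraries. Against FACS_WT the number was 3 (Slc17a6, Slc17a7 and Th), beside 12.9% of 23076 genes. With no filter on low values all 9 genes could be tested and 1, Slc17a6, was called higher in each comparison, beside 5.96% of genes against FACS_GFP and 5.89% against FACS_WT. A p above the threshold for the others does not show that the groups were alike.

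The sorted groups gave no test of these genes. None of the 9 reached the required FPKM in FACS_GFP against FACS_WT, where limma called 0.11% of 11814 genes in either direction (13 genes, 4 higher and 9 lower, with 1552 at an unadjusted p under 0.05). Without the filter, 6 of the 9 had a value above 0 in a sorted library and 0 of them were called, with limma adjusted p from 0.717 to 0.969 and 1922 of all genes at an unadjusted p under 0.05.

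The authors' deposited table of comparisons treated these genes differently from one contrast to the other. Against sorted GFP microglia it gives Slc17a7 a q-value of 0.00115, marked significant, and Slc17a6 a q-value of 0.544. Against sorted wild-type microglia the authors' deposited table gives Slc17a6 a q-value of 1.13e-07, marked significant, and Slc17a7 a q-value of 0.775. In the authors' deposited table Tph2, Chat, Th and Slc6a4 are not significant in either contrast, with q-values from 0.186 to 1, and Slc17a8, Slc5a7 and Slc6a2 are not tested. In the contrast of the sorted groups the authors' deposited table tests none of the 9.

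The genes most like Slc17a6 over the 10 libraries, by root mean square distance of log2(FPKM + 1) among 13820 genes, were Osbpl6 (0.173), an oxysterol-binding protein gene, Sema7a (0.195), a membrane-anchored semaphorin, and D430041D05Rik (0.201). Osbpl6 was 4.06, 10.9, 7.95 and 22.6 FPKM in laser-captured libraries 1 to 4, close to the values of Slc17a6, and 0.0907 to 0.156 in the sorted ones. The genes nearest to Slc17a7 were Sox7 (0.22), a transcription factor gene known from endothelium, Gm13883 (0.23) and Dok5 (0.33), an adaptor protein gene. Sox7 was 2.27, 4.85, 7.43 and 1.87 FPKM in the laser-captured libraries and listed at 0 in the sorted ones. The libraries are few and share their source, so this likeness is a description.

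Transcripts of related genes in the 9 shared at most 25 bases in an unbroken run in the GENCODE M21 transcripts of GRCm38 (Slc17a6 with Slc17a8). Slc17a6 and Slc17a7 shared 21, Tph2 and Tph1 15, and Slc6a4 and Slc6a2 14. How the authors counted reads that map to several places is not given in the sources used here.

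The 9 genes stood beside broad differences in other cell type markers. Of 11 matched pan-neuron markers (such as Snap25, Mtap2 and Syp), 11 were called higher in LCM_GFP than in either sorted group. Over all genes tested, 12.5% were called higher against FACS_GFP and 12.3% against FACS_WT. Of the 11, 7 were under 1 FPKM in every FACS_GFP library and 8 in every FACS_WT library. These could be tested only through LCM_GFP, so the count alone is not evidence. The summed FPKM of the 11 markers was 1190, 1900, 2170 and 2710 in laser-captured libraries 1 to 4, 16.7 to 24.8 in FACS_GFP and 15.1 to 17.5 in FACS_WT. Th followed the order of this sum over the 4 laser-captured libraries, and Slc17a6 did so except that library 2 exceeded library 3. Relative to the mean log2 level of the pan-neuron markers in the same library, Slc17a6 lay at −3.61, −2.94, −3.48 and −2.16, and Th at −5.35, −5.43, −5.26 and −4.50. Slc17a7 ranged from −6.18 to −3.47 and Tph2 from −6.75 to −1.87 on that scale. The part of neuronal RNA in these levels was not tested.

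Glial and vascular markers were also higher. Against FACS_GFP, 7 of 8 oligodendrocyte, 5 of 5 oligodendrocyte precursor, 6 of 8 astrocyte, 5 of 7 endothelial and 3 of 3 tested pericyte or smooth muscle markers were called higher, and none lower. Over all genes tested, 12.5% were called higher. In every FACS_GFP library 4 oligodendrocyte, 6 astrocyte, 5 endothelial and all precursor and pericyte markers were under 1 FPKM. Those that were tested passed the requirement only through LCM_GFP, so the counts alone are not evidence. The oligodendrocyte sum was 2580 to 7290 FPKM in LCM_GFP and 21.2 to 32.8 in the sorted libraries, and the astrocyte sum 440 to 850 and 21.3 to 33. Microglia markers, at a sum of 1300 to 2830 FPKM in LCM_GFP, 4280 to 5050 in FACS_GFP and 5100 to 6490 in FACS_WT, were present in all 10 libraries, and 8 of 12 were called lower than in FACS_GFP and 11 of 12 than in FACS_WT. Of all genes tested, 2624 of 13403 were called lower than in FACS_GFP and 2558 of 13415 than in FACS_WT. With median ratio scaling 2 of 12 microglia markers were called lower than in FACS_GFP and 3 of 12 than in FACS_WT. Under that scaling 1357 of 13403 and 1349 of 13415 of all genes tested were called lower. Among further listed genes, Phox2a was listed at 0 in all 10 libraries and Pnmt was listed at 0 in LCM_GFP. The granins Chga and Chgb, also neuronal, were called higher and were under 1 FPKM in every sorted library. The source of the Th transcripts was not tested.

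Laser-captured libraries 1 and 3 stood apart in other transcripts. The embryonic globin Hbb-y was 902, 0.102, 439 and 0.0666 FPKM in laser-captured libraries 1 to 4 and listed at 0 in all sorted libraries, and the proliferation gene Mki67 was 202, 12.4, 46.6 and 0.0785. These genes were named after their values were seen. Library 3 is the one with 29.2 FPKM of Tph2, and the part of these transcripts' source in the Tph2 value was not tested. With libraries 2 and 4 only, and 1 FPKM required in 2 libraries, the log2 change of Slc17a6 against FACS_GFP was 4.17 (limma adjusted p 0.00258), and Slc17a7 could not be tested. In those 2 libraries Th was 0.952 and 4.86 FPKM, Chat 0 and 1.74, Tph2 0 and 0.229 and Slc6a4 0 and 4.49.

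The libraries held 11075 to 12500 genes at 1 FPKM or more in LCM_GFP, 11742 to 11773 in FACS_GFP and 11706 to 11821 in FACS_WT. A rough estimate of depth, in units of 1e+06 fragments, was 36.4 to 47.0 for LCM_GFP, 55.0 to 67.8 for FACS_GFP and 54.6 to 71.6 for FACS_WT. The sorted libraries, in which the 9 genes were near 0, were thus by this estimate the deeper ones. Across all genes the median log2 change against FACS_GFP was −0.60, with 1681 called higher and 2624 lower, and median ratio scaling moved it to −0.14, with 1863 higher and 1357 lower. The log2 changes of Slc17a6 and Slc17a7 stayed positive and called under that scaling and under quantile normalization.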

How the data were processed

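RNA from 10 libraries in 3 groups was measured by sequencing after amplification with the Ovation method, per the labels' protocols. The submitters' processing notes name build mm9 and the tools Cufflinks 2.0.2, Bowtie2 2.0.0, CASAVA 1.8.2 and TopHat2 2.0.4. The deposited gene table holds FPKM per library, per the file headers, and any further scaling between libraries is not given in the sources used here. A deposited comparison table holds the authors' q-values, from which those of the 9 genes are quoted. The other deposited tables were not used here.

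Samples were grouped by the labels. For each pair of groups, limma 3.58.1 was run on log2(FPKM + 1) of the genes that reached 1 FPKM in 3 or more of the libraries compared (trend and robust empirical Bayes, statmod 1.5.0, R 4.3.3). Tests were two-sided, and genes were called at a Benjamini-Hochberg adjusted p under 0.05 over all genes tested. The script was tested on simulated data. The files give no counts. Depth was estimated from the spacing of low FPKM values of genes with 1 exon, assuming an effective length 200 bases shorter than the transcript. From 57.1% to 65.6% of these values came within 0.15 of a whole number of fragments, too few to recover counts, and no counting intervals are given. Python 3.11.15, pandas 2.3.3 and numpy 2.4.6 served for the tables, and figures were drawn with matplotlib 3.10.9.

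The 9 genes, the other gene lists and the tests were chosen with earlier results of these data known. Named genes were the 9, up to 4 genes of each list by mean FPKM over the 10 libraries, called genes opposed to the rest of their list if no more than 5, and the 3 genes nearest to each of the 9 that reached 1 FPKM in at least 3 libraries. Other names, chosen after their values were seen, were Slc1a1 and Drd2, which complete counts of 5 or fewer, and those said in the text to be so chosen. A few listed genes that the naming rule covers are not reported here by name, though list counts include them. Slc18a3, Tubb3 and Asmt had no match in the table and were not analysed here. Alternatives changed the pseudocount, filter, scaling, samples in the fit, spread per group and replicate block, left out each library, and, added after seeing the data, kept laser-captured libraries 2 and 4 only. Labels call the libraries biological replicates. Whether same-numbered libraries of different groups share a source is not given.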

Additional observations from a re-analysis of the deposited data

Results flagged for a closer look

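Tph2 in the laser-captured group was set by 1 library. Its FPKM was 29.2 in library 3 and 0.0302, 0 and 0.229 in libraries 1, 2 and 4, so the gap between the highest library and the next took 0.992 of the whole range. Each of the 9 genes was checked in this way in the laser-captured libraries, with a cut of 0.829. That cut flags about 1 in 20 groups of normally distributed values. FPKM need not be so distributed, so the share that chance flags here is not known. The high library is 1 of the 2 that also hold embryonic globin and proliferation transcripts, and Slc18a2 had its highest value there (9.35 FPKM). The part of these in the Tph2 value was not tested.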

How the results depend on the processing

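Slc17a6 kept its direction and call in all 16 alternatives of each laser-capture comparison. Slc17a7 kept its direction in the 12 alternatives of each that could test it and its call in 7, and could not be tested without laser-captured library 1, 2 or 3 or with libraries 2 and 4 only, where fewer libraries reach 1 FPKM. The 2 genes of the 9 called higher became 1 in both laser-capture comparisons with a pseudocount of 5, with no filter and with libraries 2 and 4 only, and 1 to 2 with a library left out. The genes called over the whole table, 4305 against FACS_GFP, were 1042 to 5434 with a library left out (fewest without FACS_GFP replicate 3) and 6974 with libraries 2 and 4 only. Against FACS_WT, 4207 became 1089 to 5257 (fewest without FACS_WT replicate 1) and 6668. Between the sorted groups, 13 became 7 with no filter, 3 with all 3 groups in 1 fit and 4 to 15 with a library left out (fewest without FACS_WT replicate 2). Beyond those with a stated construction, the cause was not tested.

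Same-numbered libraries of the laser-captured and sorted groups did not deviate together (correlations of deviations from −0.0313 to 0.00491), and those of the sorted groups did so in part (0.107, −0.037 and 0.105), so the numbers were not taken as pairs. With the replicate block, where laser-captured library 4 has no partner, 2 of the 9 genes were called higher in each laser-capture comparison. The log2 change was 3.07 for Slc17a6 and 2.53 for Slc17a7 against FACS_GFP, and the genes called numbered 3370 against FACS_GFP, 3334 against FACS_WT and 19 between the sorted groups. FPKM gives no counts, so the floor of detection near 0 is unknown.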
